A study of Mus musculus with 24 samples.

Results

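The proliferative zone (PZ) of the proximal tibial growth plate was compared between Ezh1/2 mice and wild-type mice, by setting the 6 arrays titled KO PZ1 to KO PZ6 against the 6 titled WT PZ1 to WT PZ6. These were 12 of the 24 arrays of the study, whose other 12 held the hypertrophic zone (HZ). All mice were 3 days old, came from a mixed background, carried Col2-cre and lacked Ezh1 (Ezh1-/-). Wild-type mice kept both intact copies of Ezh2 (Ezh2+/+), and Ezh1/2 mice were homozygous for the floxed allele (Ezh2 fl/fl). The comparison therefore measured the loss of Ezh2 in cartilage without Ezh1, with no group that kept Ezh1. Col2-cre is active where the Col2a1 promoter is, so cells outside cartilage may keep Ezh2. Each array held the PZ of 1 animal, cut out by laser capture, and both sexes were used.

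Ezh1 and Ezh2 are the alternative catalytic subunits of Polycomb repressive complex 2, which methylates histone H3 at lysine 27 and so marks genes of development that a cell keeps silent. The complex PRC1 binds this mark and compacts chromatin. Well-known targets in other cells are the Hox clusters, homeobox and signalling genes of the embryo, and the Cdkn2a and Cdkn2b locus, which restrains the cell cycle. In the PZ, flattened chondrocytes divide in columns before they enlarge in the HZ, and this division and enlargement drive bone elongation.

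The deposited values were log2 expression levels of 41345 probe sets, and a difference of 1 on this scale is a 2-fold change. Changes were tested by limma and called at a Benjamini-Hochberg adjusted p under 0.05. Arrays within a group correlated at 0.954 to 0.974 in wild type and at 0.956 to 0.973 in Ezh1/2 mice, and wild-type array 1 and Ezh1/2 array 1 had the lowest mean correlation with the rest, 0.958 each. Chondrocyte genes were high on all arrays, with mean log2 levels of 11.64 and 11.72 for Col2a1 and of 11.77 in both groups for Acan. No cartilage matrix gene was called of 24 measured, with a median log2 fold change of -0.04. Ezh2 itself was lower on every Ezh1/2 array (5.85 at the lowest, 6.56 at the median and 6.67 at the highest) than on any wild-type array (6.88, 7.15 and 7.27), a difference of -0.63 that missed the threshold over all probe sets (standard error 0.14, adjusted p = 0.0852 in limma) and gave a two-sided exact permutation p of 0.0022, which is the smallest possible with these group sizes. Ezh1, which both groups lack, had a mean log2 level of 4.56 in both. Where these probe sets lie against the deleted exons was not examined, so the values do not measure the loss of the intact transcripts. Markers of other cells were also present. The mean log2 level of 15 perichondrium and fibroblast markers ranged from 5.51 to 7.06 on wild-type and from 5.58 to 6.27 on Ezh1/2 arrays (difference -0.44, exact permutation p = 0.147), with Dcn at -1.13, Tnmd at -1.26 and Postn at -1.20, none called. Skeletal muscle markers ranged from 4.35 to 6.81 and from 4.32 to 6.87, and erythroid markers from 6.90 to 9.19 and from 6.08 to 9.11.

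Genes rose far more often than they fell. In limma, 152 probe sets were higher in Ezh1/2 mice (0.368% of those tested) and 18 were lower (0.0435%). The rises had a median log2 fold change of 0.82, and 54 of them exceeded 2-fold, while the falls had a median of -0.70. The 6 Ezh1/2 arrays lay entirely above the 6 wild-type arrays for 141 of the 152 rises and entirely below for 14 of the 18 falls, where over all probe sets 0.658% were separated upward and 0.177% downward. At the criteria of the study's methods (fold change above 1.3 at an unadjusted p below 0.001), 264 were higher (0.639%) and 52 lower (0.126%). Of the rises, 120 probe sets carried 1 gene symbol, 3 carried several and 29 none, and the 1-symbol probe sets named 110 genes. Some probe sets repeated the values of another, so the 152 rises held 141 different sets of values. The falls named 12 genes. When genes were represented by 1 probe set each, 115 of 23981 rose (0.48%) and 11 fell (0.0459%). The median log2 fold change over all of them was -0.005. These values are the background for the gene families below. The families were chosen with earlier results of these data known, so their shares are descriptions. The counts were sensitive to single arrays and covariates. Without wild-type array 3 there were 87 rises, without both arrays of lowest mean correlation 80, and with the mean level of the perichondrium markers as a covariate 66 rises and 9 falls. In RNA taken from many cells together, fewer cells of a type and less RNA per cell cannot be told apart.

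Growth genes that are active in the fetus held several of the largest rises. Among 12 such genes with a symbol, 3 rose and 0 fell. Plag1, which encodes a transcription factor with Igf2 among its targets in other cells, had log2 levels of 5.38, 5.50 and 6.18 (lowest, median and highest) in wild type and of 7.39, 7.66 and 7.72 in Ezh1/2 mice. It rose by 2.05 on the log2 scale, which is 4.14-fold (standard error 0.13, adjusted p = 1.13e-05), and 5 of the 6 wild-type arrays lay within 5.38 to 5.52. The family of Igf2bp RNA-binding proteins, which stabilise and localise messenger RNAs such as that of Igf2, rose with all 3 of its members, one of them on a probe set outside the list. The probe set annotated to both Igf2bp1 and Mir3063 had the lowest p of all probe sets, with levels of 4.10, 4.24 and 4.41 against 5.90, 5.96 and 6.15 (log2 fold change 1.75, standard error 0.07, adjusted p = 1.59e-07). Igf2bp3 went from 4.58, 5.06 and 5.48 to 6.11, 6.18 and 6.30 (1.13, standard error 0.14, adjusted p = 0.00353), and its Ezh1/2 arrays were the more alike, with an SD of 0.08 against 0.34. Igf2bp2, named by the study for a probe set without a symbol, went from 6.11, 6.39 and 6.70 to 6.79, 7.03 and 7.17 (0.59, standard error 0.10, adjusted p = 0.0178). Its call was lost when either wild-type array 3 (adjusted p = 0.0526) or Ezh1/2 array 1 was left out. All Ezh1/2 arrays exceeded all wild-type arrays for Plag1 and for the 3 Igf2bp genes.

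Other fetal growth genes did not pass the test. Hmga2, a chromatin protein of growing tissue, had a log2 fold change of 0.27 (adjusted p = 0.566), Igf2 of -0.05 (adjusted p = 0.976), and Lin28a and Lin28b, regulators of let-7 microRNAs, of -0.11 and 0.00. Of 19 genes of the insulin-like growth factor axis, 1 rose and 0 fell. This was Pappa2, a protease that frees insulin-like growth factors by cleaving binding proteins, with levels of 3.75, 3.94 and 4.42 in wild type and of 5.28, 5.64 and 5.87 in Ezh1/2 mice (1.62, standard error 0.14, adjusted p = 0.000122). The related protease Pappa had 0.12 (adjusted p = 0.874). The binding proteins Igfbp3 and Igfbp5 had -0.36 (adjusted p = 0.833) and -0.27 (adjusted p = 0.914), with standard errors of 0.25 and 0.26, so that changes of this size could not be told from the spread between arrays.

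**Figure D1:**
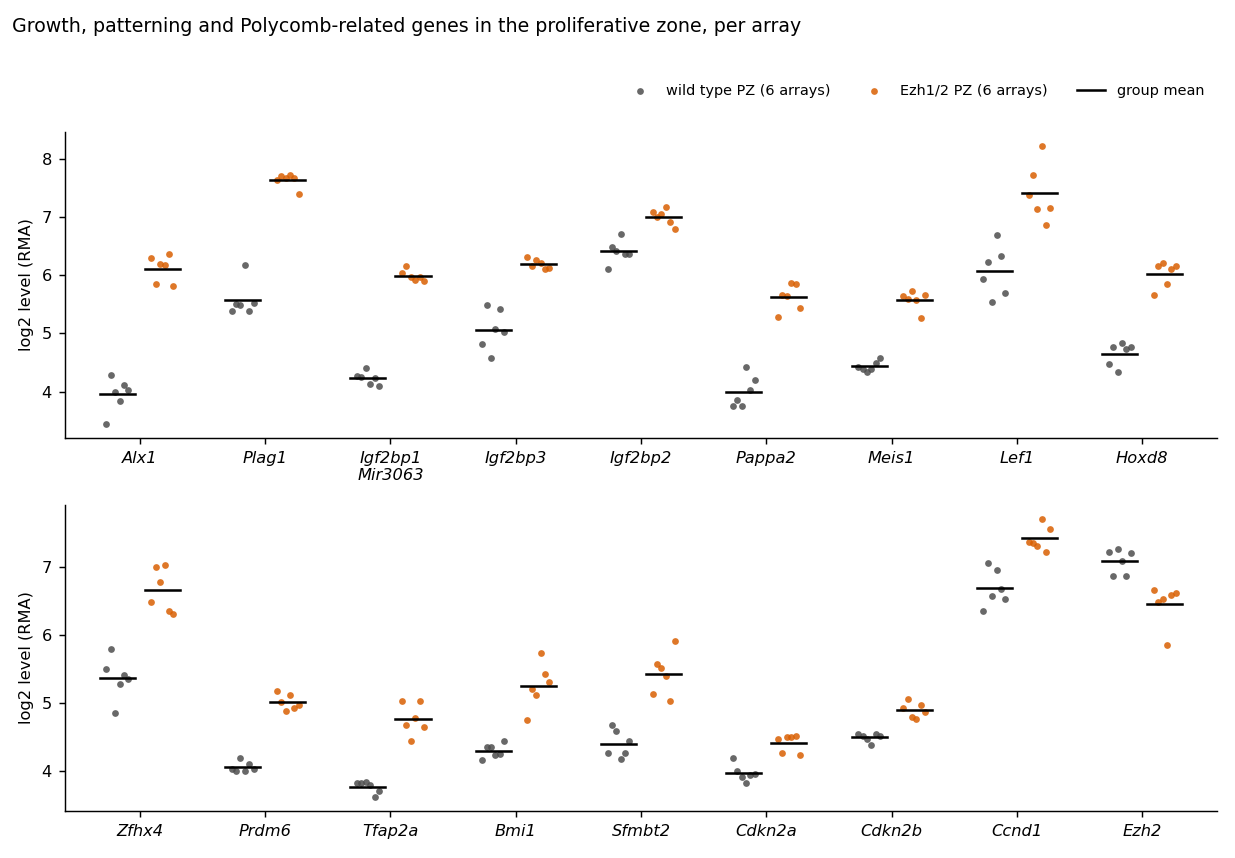
Log2 expression level (RMA) of 18 genes on each PZ array, with grey points for the 6 wild-type arrays, orange points for the 6 Ezh1/2 arrays and black bars for group means. The Ezh1/2 points lie above all wild-type points for every gene shown except Ezh2, whose Ezh1/2 points lie below, and Plag1 spans 7.39 to 7.72 in Ezh1/2 mice.

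Transcription factors that pattern the embryo were the most numerous group of rises among the gene lists. Of 281 genes listed as developmental factors or their noncoding neighbours, 23 rose (8.19%, beside 0.48% of all genes) and 0 fell. Among 95 homeobox genes outside the Hox clusters, 10 rose, with a median of 0.04 for the whole list. Alx1, which shapes the face and skull, had the largest rise of any probe set with a single symbol. Its levels were 3.44, 4.01 and 4.28 in wild type and 5.81, 6.18 and 6.37 in Ezh1/2 mice (2.16 or 4.48-fold, standard error 0.14, adjusted p = 1.69e-05). Meis1, a cofactor of Hox proteins in the limb, had levels of 4.34, 4.41 and 4.58 against 5.27, 5.61 and 5.73 (1.14, standard error 0.08, adjusted p = 3.40e-05). Its partners of the PBX family rose too, Pbx3 by 0.67 and Pbx2 by 0.56. The remaining homeobox genes that rose were Zfhx4 (1.3) and its relative Zfhx3 (0.63), Lhx9 (0.97), Isl1 (0.85), which marks early hindlimb and heart fields, Dlx6 (0.58), a gene of jaw and limb, and Msx1 (0.96), measured by a probe set it shares with its antisense transcript Msx1os. A further probe set without a symbol, named Msx1as by the study, rose by 0.93.

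Of 38 Hox genes, 4 rose and 0 fell. Hoxd8 had levels of 4.34, 4.74 and 4.84 against 5.65, 6.13 and 6.21 (1.37, standard error 0.12, adjusted p = 0.000137). The genes of the digits Hoxd13 and Hoxa13 rose by 0.83 and 0.44, and Hoxa11 by 0.57 on a probe set shared with Hoxa11os. For Hoxd13, levels of 3.43, 3.53 and 3.72 became 4.01, 4.34 and 4.77. A further 9 Hox genes had an unadjusted p under 0.05, all of them higher (4.15% of all probe sets were higher at this p), such as Hoxd9 (0.41, adjusted p = 0.0801). Hotair, a noncoding RNA of the HoxC cluster, rose by 0.54. Outside the homeobox class, Tfap2a, a factor of neural crest and skin, rose by 1.01 (adjusted p = 0.00073), the smooth muscle repressor Prdm6 by 0.96 (adjusted p = 3.52e-05), the basic helix-loop-helix gene Tcf24 by 1.18, the T-box gene Tbx18 by 0.81, Foxp4 by 0.57, Foxd1 by 0.56 and Eya1 by 0.41. Prdm6 was among the most even genes, with all wild-type arrays between 3.98 and 4.19 and all Ezh1/2 arrays between 4.88 and 5.18. By contrast, 0 of 18 SOX, RUNX and MEF2 genes that run the chondrocyte programme were called, with a median of 0.05. The calls of Dlx6, Zfhx3, Hoxa11, Hoxa13 and Eya1 were lost when any 1 of 7 to 10 of the arrays was left out, with adjusted p up to 0.108, and that of Hotair when any 1 of 3 was. Without both arrays of lowest mean correlation 2 Hox genes and 7 other homeobox genes were called, and Foxp4 (adjusted p = 0.0867), Foxd1 (adjusted p = 0.0834) and Pbx2 (adjusted p = 0.0846) did not pass.

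**Figure D2:**
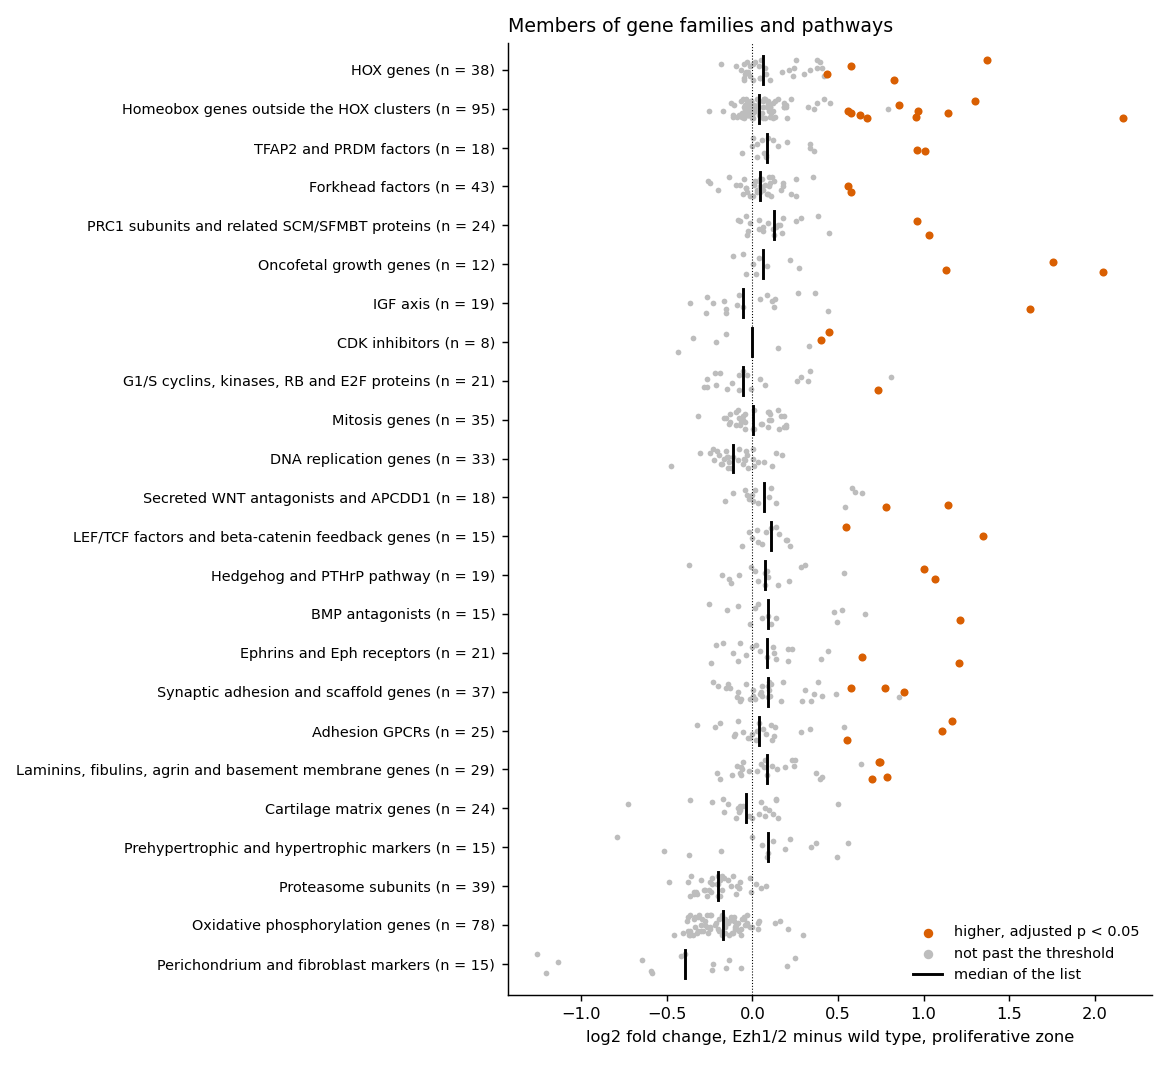
Log2 fold change (Ezh1/2 minus wild type, PZ, horizontal axis) of every measured member of 24 gene lists, with orange points for genes that rose at an adjusted p under 0.05, grey points for the others and a black bar at the median of each list. Called genes stand to the right of lists whose medians stay near 0, as for the homeobox genes (median 0.04), while most points of the proteasome and oxidative phosphorylation lists (36 of 39 and 71 of 78) sit left of 0 (medians -0.20 and -0.17) without a called gene.

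Of 13 subunits and accessory proteins of PRC2, 0 passed the test, with -0.03 for Eed and -0.04 for Suz12, the other core subunits. Of 24 PRC1 subunits and related proteins, 2 rose and 0 fell. Bmi1, a PRC1 subunit known for repressing the Cdkn2a locus, had levels of 4.15, 4.30 and 4.43 in wild type and of 4.75, 5.26 and 5.73 in Ezh1/2 mice (0.96, standard error 0.13, adjusted p = 0.00673). Sfmbt2, an imprinted gene related to the Polycomb proteins, had levels of 4.17, 4.35 and 4.67 against 5.03, 5.46 and 5.91 (1.03, standard error 0.14, adjusted p = 0.00673). The paralogue of Bmi1, Pcgf2, had 0.45 (adjusted p = 0.481). An intron of Sfmbt2 holds the microRNA families Mir466, Mir467, Mir669 and Mir297, and 70 probe sets carry such names. Of these, 13 rose, 67 had a log2 fold change above 0, and their median was 0.74. They hold only 39 different sets of values, since near-identical copies share their probes, and the 13 rises reduce to 8. Probe sets without a symbol that the study names Mir669l, Mir466b-2 and mmu-mir-466c-1 rose too and are outside these counts. Their calls were lost when any 1 of 9 or 10 arrays was left out.

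A pair of called microRNA genes, Mir181a-2 and Mir541, lies elsewhere, and their mature sequences are shown because each arm has a seed of its own (bases 2 to 8, in capitals), through which it pairs with target transcripts. The array measures the precursor and not the arms. The coordinates and sequences are those of RefSeq on GRCm38.p6, plus strand, with Mir181a-2 on chromosome 2 and Mir541 on chromosome 12.
mmu-miR-181a-5p: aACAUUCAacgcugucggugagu
mmu-miR-181a-2-3p: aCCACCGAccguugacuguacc
mmu-miR-541-5p: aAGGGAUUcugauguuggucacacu
mmu-miR-541-3p: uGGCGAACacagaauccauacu
Mir181a-2 had levels of 3.43, 3.84 and 4.21 in wild type and of 4.58, 4.78 and 5.19 in Ezh1/2 mice (0.99, standard error 0.14, adjusted p = 0.00832, and 0.0522 with the perichondrium markers as a covariate). Mir541 belongs to the imprinted Dlk1-Dio3 locus and had levels of 4.05, 4.19 and 4.69 against 4.69, 5.17 and 5.71 (0.94, adjusted p = 0.0363, and up to 0.0984 with 1 array left out). Of 8 other transcripts of that locus 0 were called, but all had a log2 fold change above 0, among them the noncoding RNAs Rian (0.50, adjusted p = 0.104) and Meg3 (0.40, adjusted p = 0.278).

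Cell cycle inhibitors of the Cdkn2a and Cdkn2b locus rose by small amounts on the array scale. Cdkn2a, which encodes p16 and p19Arf, had levels of 3.82, 3.94 and 4.19 in wild type and of 4.23, 4.49 and 4.51 in Ezh1/2 mice (0.45, standard error 0.08, adjusted p = 0.0356). Its wild-type levels lay below 4.38, the median wild-type PZ level of all probe sets, so the size of this rise is uncertain. By quantitative PCR of laser-captured zones at this age, the study reported a far larger rise of Cdkn2a in the PZ. Cdkn2b, which encodes p15 and is the neighbouring gene, had levels of 4.38, 4.51 and 4.54 against 4.76, 4.89 and 5.05 (0.40, standard error 0.07, adjusted p = 0.0238). All Ezh1/2 arrays lay above all wild-type arrays for both genes, and the exact permutation p was 0.0022 for both, but the calls were lost when any 1 of 9 and of 8 arrays was left out, with adjusted p of up to 0.094 for Cdkn2a and 0.0711 for Cdkn2b. Neither gene passed without both arrays of lowest mean correlation or with the perichondrium markers as a covariate. The remaining 6 CDK inhibitors of 8 measured did not pass, with -0.44 for Cdkn1a (adjusted p = 0.725) and -0.35 for Cdkn1b (adjusted p = 0.496).

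No gene that drives division was called lower. Cyclin D1, encoded by Ccnd1 and an activator of the G1 kinases Cdk4 and Cdk6, had levels of 6.36, 6.63 and 7.06 in wild type and of 7.23, 7.37 and 7.72 in Ezh1/2 mice (0.73, standard error 0.13, adjusted p = 0.0239, and up to 0.0728 with 1 array left out). It was the only gene called of 21 G1/S cyclins, kinases, RB and E2F proteins, while Ccnd2 had 0.81 (adjusted p = 0.219). Of 35 mitosis genes 0 were called, with a median of 0.00 and 18 of them above 0. Of 33 DNA replication genes 0 were called, with a median of -0.11 and 25 below 0, beside 50.7% of all probe sets. Bcl2, which protects cells from apoptosis, rose by 0.53 (adjusted p = 0.0455), with a second probe set at 0.52 and groups that overlapped, and its call was lost without any 1 of 11 arrays (adjusted p up to 0.117).

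The 250 bases before the start of selected genes are shown, with CG dinucleotides in capitals, because CG-rich promoters are where Polycomb complexes typically bind. They are RefSeq sequences on GRCm38.p6, written in the direction of the gene. The first 4 belong to genes that rose and the last 2 to genes that fell. Igf2bp3 lies at chr6:49214955-49215204 (minus strand), Cdkn2a, at its first listed start, at chr4:89294620-89294869 (minus), Cdkn2b at chr4:89311033-89311282 (minus), Pappa2 at chr1:158958176-158958425 (minus), Il18 at chr9:50554450-50554699 (plus) and Mgst2 at chr3:51660929-51661178 (plus).
Igf2bp3: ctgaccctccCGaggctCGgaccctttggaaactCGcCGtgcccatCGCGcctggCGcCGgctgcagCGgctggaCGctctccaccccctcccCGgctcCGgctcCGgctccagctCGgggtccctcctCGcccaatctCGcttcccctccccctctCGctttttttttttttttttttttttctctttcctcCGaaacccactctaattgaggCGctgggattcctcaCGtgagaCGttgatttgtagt
Cdkn2a: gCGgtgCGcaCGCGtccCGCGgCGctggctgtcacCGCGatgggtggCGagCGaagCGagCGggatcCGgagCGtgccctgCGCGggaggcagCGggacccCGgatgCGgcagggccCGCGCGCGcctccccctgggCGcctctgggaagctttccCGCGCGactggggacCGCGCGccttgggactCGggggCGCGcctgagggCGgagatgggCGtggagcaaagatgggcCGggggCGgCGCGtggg
Cdkn2b: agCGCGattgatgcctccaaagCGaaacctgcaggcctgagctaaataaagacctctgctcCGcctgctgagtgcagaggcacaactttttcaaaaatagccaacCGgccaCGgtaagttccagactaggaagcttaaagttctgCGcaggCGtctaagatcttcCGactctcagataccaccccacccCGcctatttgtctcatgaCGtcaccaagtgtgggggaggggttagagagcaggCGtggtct
Pappa2: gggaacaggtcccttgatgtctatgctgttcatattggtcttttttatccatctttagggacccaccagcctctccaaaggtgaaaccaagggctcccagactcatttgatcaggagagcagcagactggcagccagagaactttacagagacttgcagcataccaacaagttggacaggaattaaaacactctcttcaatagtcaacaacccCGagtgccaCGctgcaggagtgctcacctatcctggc
Il18: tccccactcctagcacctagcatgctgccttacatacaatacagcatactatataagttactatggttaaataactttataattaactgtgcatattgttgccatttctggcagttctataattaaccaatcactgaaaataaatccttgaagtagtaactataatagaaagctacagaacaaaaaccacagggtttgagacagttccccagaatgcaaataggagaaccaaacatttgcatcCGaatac
Mgst2: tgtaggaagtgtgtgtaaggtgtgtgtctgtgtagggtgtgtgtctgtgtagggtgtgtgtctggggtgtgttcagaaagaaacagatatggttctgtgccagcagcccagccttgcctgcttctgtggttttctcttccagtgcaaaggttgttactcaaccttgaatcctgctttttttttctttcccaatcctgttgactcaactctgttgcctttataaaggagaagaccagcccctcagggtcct
These windows held 40 CG dinucleotides for Cdkn2a, 21 for Igf2bp3, 12 for Cdkn2b, 2 for Pappa2, 1 for Il18 and 0 for Mgst2. The second listed start of Cdkn2a held 7. The primers with which the study measured histone methylation at Cdkn2a match this second window, except for the first bases of a primer. They do not match the Cdkn2a window printed here, so its count does not describe the site that the study tested. Genes that rose are thus found with both CG-rich and CG-poor windows, as are genes that fell, since the windows of Ppm1g, Lsm8, Tnfaip1 and Rabif held 31, 21, 18 and 14. These examples do not describe the called genes as a set. A share over all called genes is not given, since promoters were listed for only 77 of the 110 genes that rose and for 76.6% of all measured genes.

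Signalling genes rose in several pathways and fell in none. Of 232 genes listed under signalling pathways, 10 rose (4.31%). In the WNT pathway, the transcription factor Lef1, which carries the nuclear signal with beta-catenin, had levels of 5.53, 6.08 and 6.69 in wild type and of 6.86, 7.27 and 8.22 in Ezh1/2 mice (1.35, standard error 0.24, adjusted p = 0.0275). Its relative Tcf7l2 rose by 0.55 (adjusted p = 0.0374). The call of Lef1 was lost when any 1 of 6 arrays was left out and that of Tcf7l2 when any 1 of 9 was, with adjusted p up to 0.0751 and 0.0995, and neither passed without both arrays of lowest mean correlation or with the perichondrium markers as a covariate. The ligand Wnt5a, which acts mainly without beta-catenin and orients chondrocyte columns, had levels of 4.46, 4.75 and 4.95 against 5.24, 5.50 and 5.79 (0.77, standard error 0.12, adjusted p = 0.00873), and the other 18 WNT ligands did not pass. Secreted antagonists rose as well. Frzb, an articular cartilage protein that binds WNTs, had levels of 4.55, 4.93 and 5.40 against 5.56, 6.03 and 6.57 (1.14, standard error 0.18, adjusted p = 0.0114), and Apcdd1, a membrane inhibitor, rose by 0.78. Without both arrays of lowest mean correlation the adjusted p was 0.0516 for Frzb and 0.0867 for Apcdd1. With the perichondrium markers as a covariate it was 0.0522 for Wnt5a and 0.0673 for Frzb, while Apcdd1 passed (0.0369). A further 4 inhibitors of 18 had log2 fold changes of 0.54 to 0.64 without passing, namely Sfrp1, Sfrp2, Sfrp5 and Notum. Axin2, Nkd1 and the other feedback genes of beta-catenin were among the 13 of 15 genes of their list that were not called.

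In the Hedgehog pathway, through which Ihh keeps chondrocytes dividing, Scube1 and Hhip rose of 19 genes measured. Scube1, whose family releases Hedgehog ligands, had levels of 6.47, 6.93 and 7.55 against 7.74, 8.06 and 8.41 (1.07, standard error 0.18, adjusted p = 0.0191, and 0.0531 with 1 array left out). Hhip, a decoy receptor and target of Hedgehog, had levels of 3.75, 4.17 and 4.41 against 4.42, 5.21 and 5.68 (1.0, standard error 0.18, adjusted p = 0.0336). The second target Ptch1 had 0.15 (adjusted p = 0.737), and the call of Hhip was lost without any 1 of 10 arrays (adjusted p up to 0.0927). Among 15 BMP antagonists, Chrdl2, a chordin-like protein of cartilage, had levels of 4.10, 4.28 and 4.37 against 5.20, 5.46 and 5.96 (1.21, standard error 0.12, adjusted p = 0.000532), whereas 0 of 35 ligands, receptors and SMADs of the BMP and TGF-beta pathways were called. Fgfr2, a receptor of chondrocyte precursors and perichondrium, had levels of 5.75, 6.03 and 6.68 against 6.73, 7.17 and 7.37 (0.99, standard error 0.15, adjusted p = 0.0116), alone of 37 FGF ligands, receptors and feedback genes. Npr2, the receptor through which C-type natriuretic peptide promotes growth of bones, rose by 0.52 (adjusted p = 0.0459, lost without any 1 of 10 arrays). Without both arrays of lowest mean correlation Scube1 (adjusted p = 0.0853) and Fgfr2 (adjusted p = 0.0782) did not pass either.

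Genes best known from neurons formed a further group, spread over families of axon guidance, ion channels and synapses. Of 76 guidance genes, 6 rose (7.89%) and 0 fell. Epha3, a receptor of membrane-bound ephrins, had levels of 4.29, 4.56 and 5.04 against 5.55, 5.78 and 6.10 (1.21, standard error 0.13, adjusted p = 0.00143), and Epha5 rose by 0.64. The semaphorin receptors Plxna4 and Plxna3 rose by 0.59 and 0.44, the netrin receptor Unc5a by 0.55 and its partner Flrt1 by 0.54. Of 128 genes of ion channels and synapses, 7 rose (5.47%) and 0 fell. Kcnd2, a potassium channel of dendrites, had levels of 3.87, 4.16 and 4.25 against 4.76, 5.01 and 5.17 (0.89, standard error 0.10, adjusted p = 0.00143). With it rose the potassium channel Kcna5 (0.67), the calcium channel subunits Cacna1d (0.67) and Cacna1a (0.64), the presynaptic adhesion gene Nrxn2 (0.89, on a probe set that the study's table names Gm14964, with 0.05 for its other probe set), Nbea (0.58) and the secreted synapse organizer C1ql1 (0.77). Of 31 ionotropic glutamate and GABA receptors 0 were called. Markers of Schwann cells and neurons had a mean log2 level of 4.43 in both groups, ranging from 4.38 to 4.50 and from 4.34 to 4.51. The calls of Plxna3, Plxna4, Cacna1a, Cacna1d, Nrxn2 and C1ql1 were lost without any 1 of 7 to 11 arrays (adjusted p up to 0.119), and those of Epha5, Flrt1 and Kcna5 without both arrays of lowest mean correlation (adjusted p = 0.0855, 0.0804 and 0.0782). That of Unc5a was lost with the perichondrium markers as a covariate (adjusted p = 0.0522).

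Cell surface and matrix genes outside cartilage rose as well. Of 25 adhesion receptors coupled to G proteins, 3 rose. Adgrb1, a receptor for dying cells, had levels of 4.31, 4.66 and 4.82 against 5.40, 5.66 and 6.54 (1.16, standard error 0.17, adjusted p = 0.00821, and 0.0522 with the perichondrium markers as a covariate). Adgrg6, known for roles in myelination and in the cartilage of the spine, rose by 1.11 (adjusted p = 0.0409) and Adgrl3 by 0.55 (adjusted p = 0.0391), both lost without any 1 of 10 arrays. A second probe set of Adgrl3 had 0.15 (adjusted p = 0.74). Of 29 genes listed with the laminins, fibulins and basement membrane, 4 rose. They were Svep1 (0.75), Lama2 (0.74), the laminin chain of muscle and nerve, Fbln2 (0.70) and Dst (0.78). A second probe set of Svep1 had 0.32 (adjusted p = 0.48). Dst acts inside the cell, where it anchors the cytoskeleton at hemidesmosomes, and is not itself a matrix gene. These 4 were called also without both arrays of lowest mean correlation, and all but Lama2 with the perichondrium markers as a covariate. Lama2 had levels of 4.79, 5.22 and 5.49 in wild type and of 5.75, 5.89 and 6.16 in Ezh1/2 mice. The metalloprotease Adam33 rose by 0.69, the only one of 76 MMP, ADAM and related genes. Of 17 small leucine-rich proteoglycans and 31 collagen chains outside cartilage 0 were called.

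Genes of the germline were represented by 2 rises among 47. Ddx43, a helicase otherwise found in testis and tumours, had levels of 3.41, 3.64 and 4.36 against 5.16, 5.48 and 5.73 (1.69, standard error 0.16, adjusted p = 0.000407). Rbm46, an RNA-binding protein of meiosis, rose by 0.95 (adjusted p = 0.0134, and 0.0658 without both arrays of lowest mean correlation).

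The 12 genes that fell were spread over unrelated functions. Otogl, which encodes a gel-forming protein of the inner ear, had levels of 4.95, 5.55 and 5.86 in wild type and of 3.86, 4.26 and 4.51 in Ezh1/2 mice (-1.23, standard error 0.16, adjusted p = 0.00601). Pamr1, a secreted protease-like protein, had levels of 5.44, 5.75 and 6.03 against 4.35, 4.61 and 5.03 (-1.08, standard error 0.15, adjusted p = 0.00673). Il18, a cytokine that is processed by inflammasomes, had levels of 6.25, 6.40 and 6.66 against 4.73, 5.46 and 5.68 (-1.07, standard error 0.14, adjusted p = 0.00623), 1 of 15 members of the interleukin 1 family. These 3 falls were kept under every alternative tried. Mgst2, a membrane enzyme of leukotriene and glutathione metabolism, had levels of 5.61, 5.71 and 6.04 against 4.51, 4.99 and 5.30 (-0.86, standard error 0.13, adjusted p = 0.0114, and 0.0522 with the perichondrium markers as a covariate). Rabif, a factor that stabilises Rab GTPases, had levels of 5.54, 5.66 and 5.72 against 4.84, 4.98 and 5.29 (-0.62, adjusted p = 0.00621). All Ezh1/2 arrays lay below all wild-type arrays for these 5 genes.

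Further falls were those of Gjc3 (-0.99), a connexin of myelinating glia, Lsm8 (-0.72), a core protein of the U6 particle in splicing, Tnfaip1 (-0.61), an adaptor of ubiquitin ligases, Prxl2b (-0.61), Mypn (-0.57), a sarcomere protein, and the phosphatase gene Ppm1g (-0.40). Syne1, which encodes the nuclear envelope protein nesprin-1, fell with 2 of its 59 probe sets (-0.84 and -0.70), and the 59 had a median of -0.48 with 6 of them above 0. The call of the probe set at -0.84 was lost without any 1 of 10 arrays (adjusted p up to 0.107). Each of the calls of Gjc3, Lsm8, Tnfaip1, Prxl2b, Mypn and Ppm1g was lost without any 1 of 9 to 11 arrays (adjusted p up to 0.12). With the mean level of the skeletal muscle markers as a covariate, Mypn had -0.56 (adjusted p = 0.0505) and the more lowered Syne1 probe set -0.84 (adjusted p = 0.0678).

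**Figure D3:**
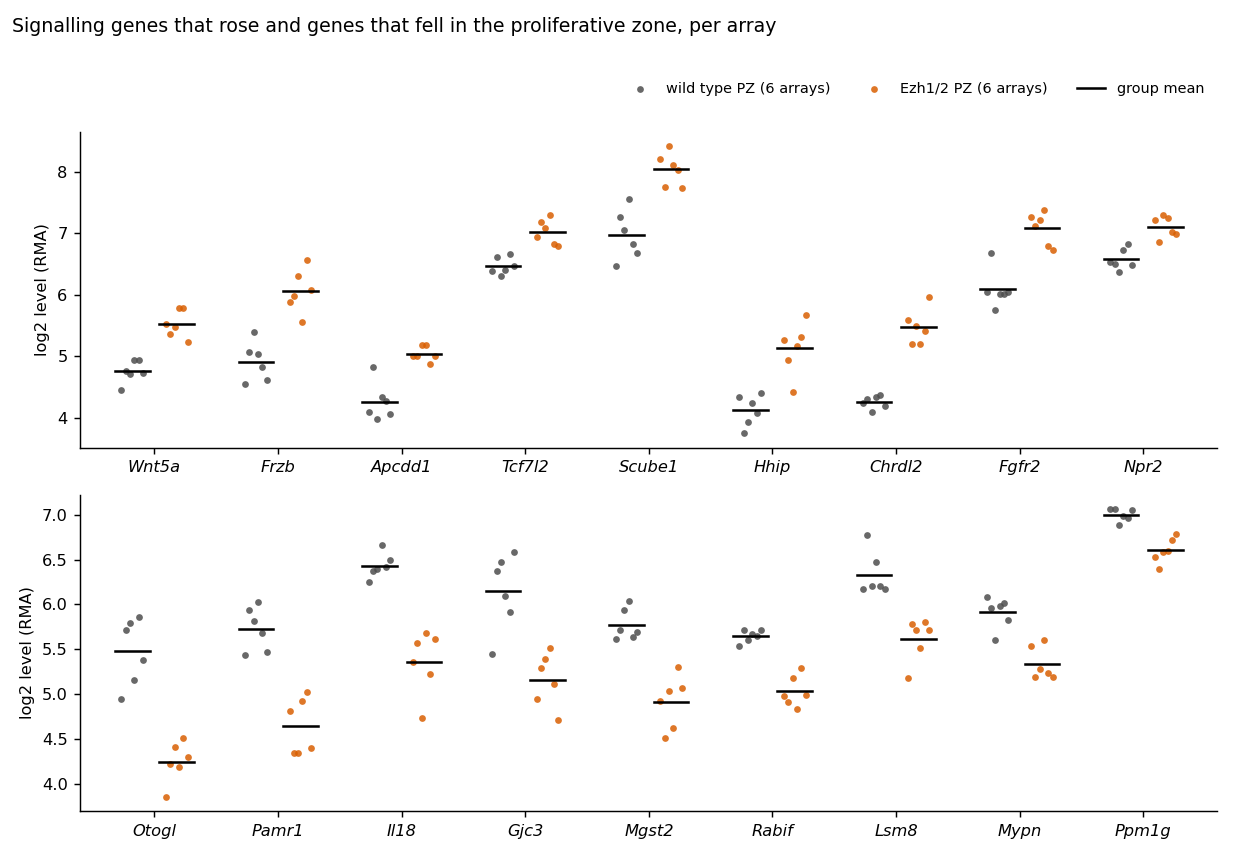
Log2 expression level (RMA) of 9 signalling genes that rose and 9 genes that fell on each PZ array, with grey points for the 6 wild-type arrays, orange points for the 6 Ezh1/2 arrays and black bars for group means. The 6 orange points of Chrdl2 lie between 5.20 and 5.96, above all wild-type points, and those of Otogl lie between 3.86 and 4.51, below all wild-type points, while the groups of Gjc3 and Mypn overlap.

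Large housekeeping complexes showed small shifts downward without any call. Of 39 proteasome subunits 36 had a log2 fold change below 0 (92.3%, beside 50.7% of all probe sets), with a median of -0.20 and the lowest adjusted p of 0.126, for Psma2 (-0.49). Of 78 genes of oxidative phosphorylation 71 were below 0 (91.0%), with a median of -0.17. The mean log2 level of the proteasome genes was 6.56, 6.70 and 7.0 (lowest, median and highest) on wild-type arrays and 6.34, 6.54 and 6.77 on Ezh1/2 arrays, so the groups overlapped. For oxidative phosphorylation the levels were 7.09, 7.25 and 7.58 against 6.81, 7.14 and 7.41. The medians of both lists stayed below 0 when each array was left out in turn (from -0.27 to -0.15 and from -0.25 to -0.13) and when the arrays were normalized again (-0.16 and -0.13). In the HZ the medians were -0.13 for the proteasome and 0.21 for oxidative phosphorylation. Genes are not independent replicates, so these counts are descriptions. Cytosolic ribosomal protein genes had a median of -0.04 over 68 genes.

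The rises of the PZ were set beside the HZ arrays of the same genotypes. By the study's methods, 6 wild-type and 6 Ezh1/2 mice were used in total for both zones, so the HZ arrays are not a replication in other mice. Equal replicate numbers did not always mark the same mouse in both zones, since Xist, which is expressed in females, had a log2 level of 3.35 on wild-type PZ array 3 but 10.53 on wild-type HZ array 3, and 10.97 against 3.91 on the arrays numbered 5. Of the 152 probe sets that rose in the PZ, 135 had a log2 fold change above 0 in the HZ (88.8%, where 45.1% of all probe sets were above 0 there), with a median of 0.34, and 45 had an unadjusted p under 0.05 there. None of the 152 was called in the HZ by limma, where 0.0145% of all probe sets were called higher and 0.00242% lower. Spread within groups was wider in the HZ, with a median residual SD of 0.29 against 0.2 in the PZ. As the 152 were selected by their PZ change, its size cannot be set directly against the HZ values. Of the 18 falls, 9 were below 0 in the HZ. A test of the difference of the genotype effect between zones, over all 24 arrays with genotype and replicate number as a random block, called 19 probe sets (0.046%), 8 of them rises and 1 a fall of the PZ. Without this block, which joined arrays of different mice for these 2 numbers, 12 were called, and the genes named here as different remained among them (adjusted p up to 0.0494, for Pappa2). By the study's quantitative PCR of laser-captured zones at this age, Ezh2 was far lower in every zone of Ezh1/2 mice, the HZ included. Since Ezh2 was not lower on the HZ arrays labelled KO (0.17, adjusted p = 0.899), that gene does not check their labels. Igfbp3 ranged from 6.75 to 7.68 on those arrays and from 5.25 to 6.72 on wild-type HZ arrays (adjusted p = 0.234), and Igfbp5 from 5.69 to 8.30 and from 4.39 to 5.88 (adjusted p = 0.224). The effect was larger in the PZ for the probe set of Igf2bp1 and Mir3063 (1.75 in the PZ against 0.34 in the HZ, adjusted p = 0.00234 for the difference), Pappa2 (1.62 against 0.20, adjusted p = 0.0237), Chrdl2 (1.21 against 0.13, adjusted p = 0.00915), Prdm6 (0.96 against 0.28, adjusted p = 0.00915), Kcnd2 (0.89 against -0.07, adjusted p = 0.0204) and C1ql1 (0.77 against -0.48, adjusted p = 0.0182). Otogl had -1.23 in the PZ and -0.07 in the HZ (adjusted p = 0.0169). Among genes not called in the PZ, Adamts9 had -0.37 and 1.15, Cp -0.27 and 1.6, and Ncam1 -0.05 and 1.32. For other leading genes the difference did not pass, as for Plag1 (2.05 against 0.95, adjusted p = 0.211), Alx1 (2.16 against 0.48, adjusted p = 0.198), Meis1 (1.14 against 0.85, adjusted p = 0.824), Lef1 (1.35 against 1.07, adjusted p = 0.943) and Cdkn2a (0.45 against 0.62, adjusted p = 0.892).

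**Figure D4:**
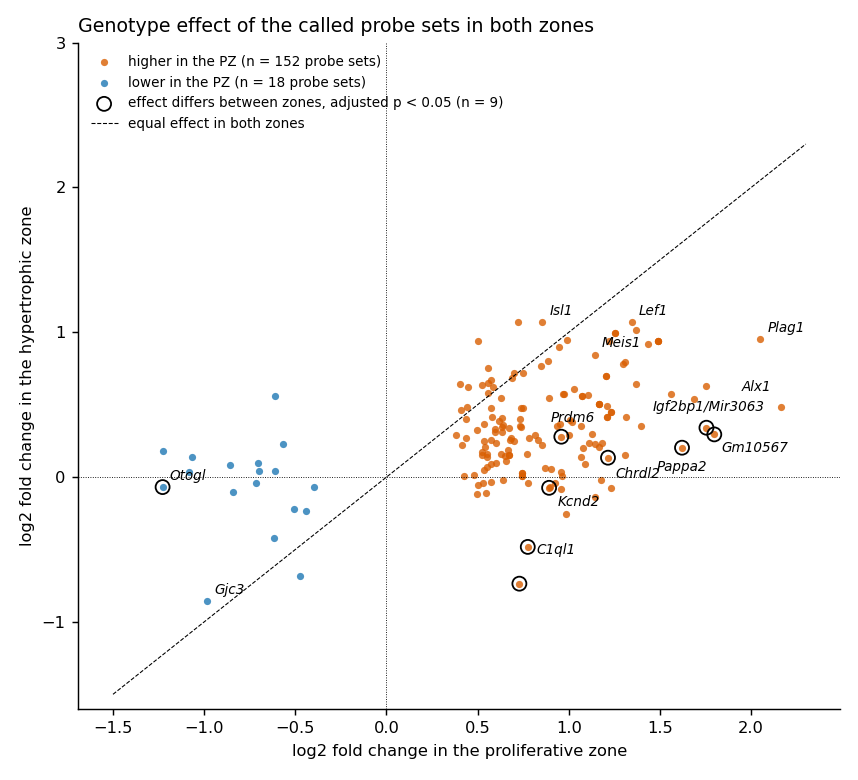
Log2 fold change (Ezh1/2 minus wild type) in the PZ (horizontal axis) and in the HZ (vertical axis) of the 152 probe sets that rose (orange) and the 18 that fell (blue) in the PZ, with black rings for the 9 whose effect differed between zones and a dashed line of equal effects. Most orange points lie above 0 but below the dashed line (HZ median 0.34), and the blue points scatter on both sides of 0 in the HZ. The probe sets were selected by their PZ change, so points below the line do not by themselves show a weaker HZ effect.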

How the data were processed

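The deposited values were log2 expression levels on Affymetrix Mouse Gene 2.0 ST arrays, which per the labels the authors made by RMA (background correction, quantile normalization and summary of probes). Each array held amplified RNA of 1 zone of 1 animal, so replicates are animals. RMA values give no detection call or depth, and the number of arrays limits the precision. Groups came from the array titles. The 12 PZ arrays were fitted in limma 3.58.1 (R 4.3.3) with moderated variances, and p-values were Benjamini-Hochberg adjusted over 41345 probe sets. Single values were tested by a two-sided exact permutation test over 924 arrangements. The difference between zones was an interaction over 24 arrays with genotype and replicate number as a random block, although Xist levels show that a number did not always mark 1 mouse across zones. The fit was tested on simulated data. Gene symbols came from the platform annotation, with 23521 probe sets of 1 symbol, 1820 of several and 16004 of none. A gene was represented by its 1-symbol probe set of highest mean PZ level. Named were 12 chosen genes, the 40 largest rises and 25 largest falls past the threshold (all where fewer passed), called members and the 3 members of lowest p of 67 gene lists, the 8 genes of lowest p between zones, and called microRNAs. Genes and lists were chosen with earlier results of these data known. Alternatives changed the variance model, weights, blocks, filters, scaling and arrays. Columns of names in the study's tables served for names alone.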

Additional observations from a re-analysis of the deposited data

Results flagged for a closer look

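In 14 of 188 groups of 6 arrays checked (94 genes or probe sets, 4 wild-type and 10 Ezh1/2 groups), the highest or lowest array stood apart from the others by more than Dixon's 95% critical value, and chance alone gives about 1 in 20 groups. In wild type these were the highest arrays of Plag1 (6.18), Fgfr2 (6.68) and Npdc1 (4.48) and the lowest of Dlx6 (3.76). In Ezh1/2 mice these were the lowest arrays of Ezh2 (5.85), Plag1 (7.39), Meis1 (5.27), the probe set of Hoxa11 and Hoxa11os (5.15), Dlx6 (4.44) and Plxna4 (4.14), and the highest of Isl1 (5.08), Adgrb1 (6.54), Rbm46 (5.73) and Cdr1 (6.62). The Ezh2 value was that of Ezh1/2 array 4, and the lowest Plag1 value that of Ezh1/2 array 6.

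The effect of genotype differed between zones, by the interaction in limma, for 8 of the genes described. The log2 fold change in the PZ minus that in the HZ was 1.5 for the probe set named Gm10567 by the study, 1.42 for Pappa2, 1.41 for the probe set of Igf2bp1 and Mir3063, 1.26 for C1ql1, 1.08 for Chrdl2, 0.966 for Kcnd2, 0.68 for Prdm6 and -1.16 for Otogl.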

How the results depend on the processing

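No call among the 170 probe sets changed direction under any alternative, 42 were kept under every alternative that tested them and 128 were lost under at least 1. Against 152 higher and 18 lower probe sets, there were 84 and 5 with the spread shared by all 24 arrays and 97 and 11 with unmoderated variances. When only the 25341 probe sets with a gene symbol were tested, 212 were higher and 29 lower. Leaving out 1 array gave 87 to 141 higher and 9 to 22 lower. Alternatives chosen after seeing the data gave 80 higher without both arrays of lowest mean correlation, 10 lower with the muscle markers and 66 and 9 with the perichondrium markers as a covariate. At the study's thresholds (264 and 52), the shared spread gave 167 and 12, and 32 were lower with unmoderated variances and 33 above the median level. The samples share only a replicate number, since same-numbered arrays of the groups came from different animals. After each group's mean was subtracted per probe set, same-numbered arrays correlated at -0.1 to 0.22. The levels themselves correlated at 0.949 to 0.977 between arrays of different groups. The replicate block gave 74 higher and 9 lower. Without the block of genotype and replicate number, which for wild-type numbers 3 and 5 joined mice of opposite Xist level, 12 probe sets differed between zones in place of 19.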

Other observations

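Of the 115 genes that rose, 46 were in none of the gene lists. Chil1, a secreted chitinase-like glycoprotein of cartilage and inflamed tissue, had log2 levels of 3.87, 4.15 and 4.87 (lowest, median and highest) in wild type and of 5.33, 5.61 and 6.34 in Ezh1/2 mice (1.56, standard error 0.21, adjusted p = 0.00621 in limma). Fndc3c1 had levels of 3.71, 3.91 and 4.27 against 5.36, 5.77 and 5.88 (1.75, adjusted p = 3.40e-05). Parts of G protein signalling rose with Plcb1 (1.11), a phospholipase C, and Gnao1 (0.67), the alpha subunit of Go. Jazf1 (0.90), a zinc-finger gene linked to human height, Npdc1 (0.74) and the kinase gene Mapk13 (0.75) rose as well. All Ezh1/2 arrays were above all wild-type arrays for these 7 genes. Sort1, a sorting receptor of the Golgi and the only call among 18 apolipoprotein and lipid transfer genes, had levels of 6.05, 6.47 and 6.67 against 7.22, 7.59 and 8.10 (1.23, adjusted p = 0.0112). A second Sort1 probe set had 0.51 (adjusted p = 0.49). The call was lost without both arrays of lowest mean correlation (adjusted p = 0.06) and with the perichondrium markers as a covariate (adjusted p = 0.065).

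Probe sets without a symbol contributed 29 rises. Several of them were named by the study for microRNA families of the Sfmbt2 intron (Mir669l, Mir466b-2 and mmu-mir-466c-1), and some repeated the same values. The one named Gm10567 by the study had levels of 3.73, 3.92 and 4.01 against 5.24, 5.72 and 6.08 (1.80, standard error 0.14, adjusted p = 3.52e-05). Those named Gm13507 and Gm17028 rose by 1.07 and 1.02.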
